A study of Mus musculus with 24 samples.

Results

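The insulin dose series comprised 12 of the 24 libraries of the study. They were made from bone marrow neutrophils of C57Bl/6J mice, which had been enriched on a Percoll gradient after lysis of red blood cells and then kept for 4 hours in medium that contained fetal calf serum. In 4 libraries the cells were left untreated (0 ng/mL), in 4 they received insulin at 10 ng/mL and in 4 insulin at 100 ng/mL. The other 12 libraries came from cells treated with LPS/IFNγ, IL4 or IGF1. No transgene or mutant allele was present in any of these groups, and no source used here states the age or sex of the animals. The members were chosen by their treatment labels, with no measured value involved. The question was whether insulin alters neutrophil gene expression, and whether 100 ng/mL does more than 10 ng/mL.

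Insulin binds the insulin receptor, and at high concentration also the closely related IGF1 receptor. Both are tyrosine kinases that phosphorylate the IRS adaptor proteins and start a pair of cascades. PI3K and AKT activate mTOR, drive glucose uptake and lipid synthesis and keep the FOXO transcription factors out of the nucleus. RAS and ERK induce immediate early genes such as Fos and Egr1 within minutes. Neutrophils are short-lived phagocytes that live mainly on glycolysis, and most of their granule proteins are made before they leave the bone marrow.

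Each library carries one of the numbers 6, 9, 10 and 11, and every number occurs once per dose. Libraries of 1 number are called a preparation here. Their values are always given below in the order 6, 9, 10, 11. Whether a number stands for 1 mouse is not stated, and the numbers also follow runs of consecutive library names, so the cells of a preparation and the batch of its libraries cannot be told apart. The libraries held 19780754 to 26619260 mapped reads, and 15746 to 16138 genes had a value above 0. All 12 neutrophil markers were measured, and their summed level was 78520 to 102200 RPKM (reads per unit of transcript length and of sequencing depth) in every library. Erythroid markers summed to 620 to 6194 RPKM and B lineage markers to 476 to 814 RPKM, so RNA of both lineages was present in every library, and in such bulk samples a change in the number of cells of a type and a change in RNA per cell cannot be told apart. No library held a read of Ins1 or Ins2, the mouse insulin genes. The library of preparation 11 at 100 ng/mL stood apart in interferon γ responsive genes, as described below, and results that rest on it are given with and without it.

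Preparation, and not dose, was the main source of variation. Of the summed squares over 9465 genes, 67.1% lay between the 4 preparations, 10.4% between the 3 doses and 22.5% in the rest. The first principal component held 33.6% of the variance and the second 22.9%, and preparations accounted for 99.8% and 91.5% of these components. The fourth component, with 8.94% of the variance, was the first in which doses took a large share (50.9%). For this reason insulin was compared with untreated cells within preparations. Changes are on the scale of log2(RPKM + 0.1), which understates the change of genes at low level.

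A single gene passed the test with insulin, at the higher dose. The 9465 genes that reached 1 RPKM in 4 or more of the 12 libraries were tested with limma. To be called, a gene had to differ by 1.5-fold or more and to have an adjusted p (Benjamini-Hochberg) below 0.05. In the trend over the 3 doses, 0 genes (0%) were called, and 536 had an unadjusted p under 0.05, of which 328 (3.47%) were higher and 208 (2.2%) lower with insulin. In the comparison of all 8 insulin libraries with the 4 untreated ones, 0 genes (0%) were called, with 285 (3.01%) higher and 111 (1.17%) lower at an unadjusted p under 0.05. At 10 ng/mL against untreated 0 genes (0%) were called and 417 had an unadjusted p under 0.05. At 100 ng/mL 1 gene (0.0106%) was called, Aqp1, and 601 had an unadjusted p under 0.05. Between 100 and 10 ng/mL 0 genes (0%) were called, while 737 (7.79%) were higher and 480 (5.07%) lower at an unadjusted p under 0.05. An analysis of recovered reads with voom called Aqp1 at 100 ng/mL and in the trend, and no other gene at this filter.

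The data also bounded the size of the changes. Changes had a 95% interval inside 1.5-fold in both directions for 93.7% of genes with the lower dose and for 93.3% with the higher, and inside 2-fold for 98.1% and 97.8%. The median change over all genes, on the log2 scale, was 0.02 with the lower dose and 0.01 with the higher. In the trend 53.7% of all genes tested had a change above 0, the share to set beside the list counts below. In 174 genes (1.84%) all 8 insulin libraries lay above the untreated library of their preparation, and in 46 genes (0.486%) all 8 lay below it.

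The receptors for insulin were expressed, and any change with dose was smaller than 1.5-fold by its 95% interval. Insr, the insulin receptor (chromosome 8, 3122061 to 3279617, GRCm38), had 11.3, 9.94, 10.4 and 9.98 RPKM in untreated cells. It had 11.1, 11.3, 11.02 and 9.81 RPKM at 10 ng/mL, and 9.57, 10.4, 10.9 and 9.46 RPKM at 100 ng/mL. The 3 groups overlapped, and the change from 0 to 100 ng/mL in the trend was -0.05 ± 0.06 (SE; 95% interval -0.18 to 0.09; exact permutation within preparations, two-sided p = 0.485, n = 4 per dose). Igf1r, the IGF1 receptor (chromosome 7, 67952827 to 68233668), had 16.7 to 17.4 RPKM in untreated cells, 16.7 to 19.2 RPKM at 10 ng/mL and 15.2 to 18.0 RPKM at 100 ng/mL. Its change in the trend was -0.05 ± 0.06 (95% interval -0.17 to 0.08; exact permutation, two-sided p = 0.457). Igf2r, which clears IGF2 from the cell surface, had 11.9 to 15.9 RPKM over the 12 libraries. Because RPKM is per length, the level of Igf1r can be set beside that of Insr: in each of the 12 libraries it was the higher of the pair. The reading of Insr includes any reads of an antisense gene that overlaps it, since no source used here states whether counting used the strand.

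**Figure D1:**
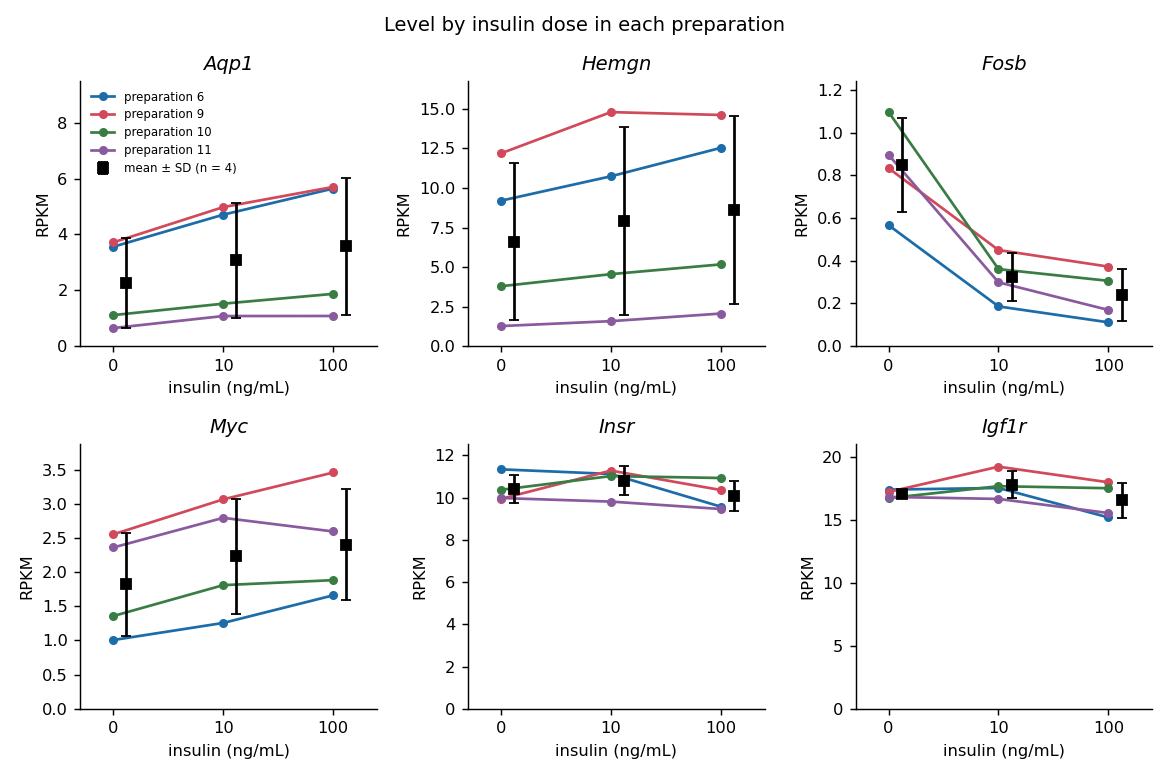
RPKM of Aqp1, Hemgn, Fosb, Myc, Insr and Igf1r in the 12 libraries against insulin dose in ng/mL (0, 10, 100), with 1 coloured line per preparation and black squares for the mean ± SD of 4 libraries. Aqp1 and Hemgn lie higher with insulin in every preparation and Fosb lies lower, while Insr and Igf1r stay between 9.46 and 19.2 RPKM at all doses.

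Downstream of the receptors the RNA of no component passed the test. Of the 24 adaptors, substrates and phosphatases listed, 16 were measured, and 0 had an unadjusted p under 0.05 in the trend. Irs1, the main IRS protein of muscle, was below the filter with a mean of 0.15 RPKM over the 12 libraries. Irs2, its relative in liver and blood cells, had 5.45 to 8.45 RPKM in untreated cells and 5.58 to 7.56 RPKM at 100 ng/mL, with a change of -0.10 ± 0.06. Of the 37 genes of PI3K, AKT, mTOR and FOXO signalling, 34 were measured. In the trend 18 of them had a change above 0 and 16 below, the median was 0.00 against 0.01 over all genes tested, and in all 34 the 95% interval lay within 1.5-fold. Akt1, a kinase of growth and survival signalling, had 74.9 to 79.9 RPKM untreated and 68.0 to 76.8 RPKM at 100 ng/mL (change -0.07 ± 0.04). Akt2, the isoform needed for insulin action in muscle and fat, had 15.6 to 19.0 RPKM untreated and 15.5 to 17.3 RPKM at 100 ng/mL. Foxo3 differed by 0.01 ± 0.05 and Foxo1 by -0.13 ± 0.07. The 1 member with an unadjusted p under 0.05 was Akt1s1, which encodes the mTORC1 inhibitor PRAS40. It had 4.75, 4.72, 4.00 and 4.11 RPKM untreated and 4.09, 4.07, 3.63 and 3.72 RPKM at 100 ng/mL, and all 8 insulin libraries lay below the untreated one of their preparation (change -0.18 ± 0.07, limma adjusted p = 0.857). All 25 RAS and ERK components were measured, and 0 were higher and 1 lower at an unadjusted p under 0.05.

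**Figure D2:**
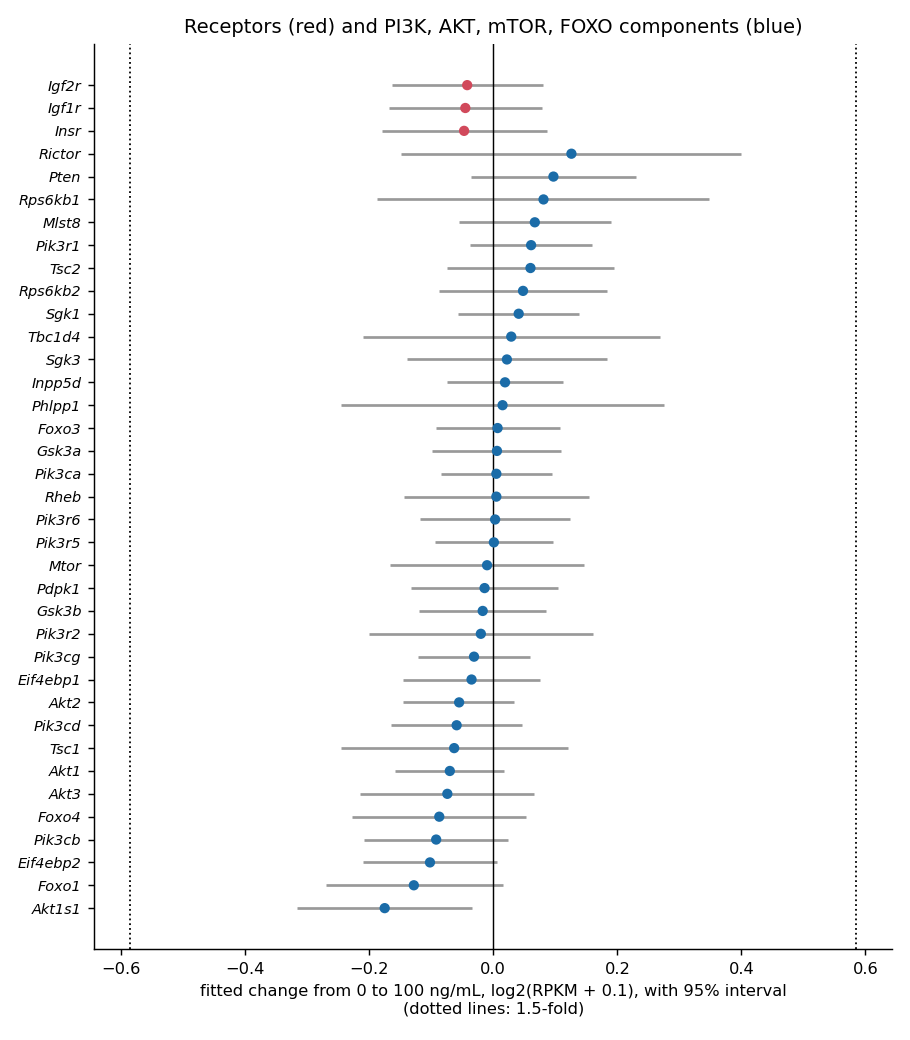
Change from 0 to 100 ng/mL insulin in the trend (points, log2 scale) with its 95% interval (bars) for the 3 measured receptors (red) and the 34 measured PI3K, AKT, mTOR and FOXO components (blue), with the 1.5-fold limits as dotted lines. Every interval lies inside the limits, from -0.18 to 0.09 for Insr.

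The textbook transcriptional targets of the pathway did not pass the test. FOXO proteins activate a set of genes that insulin lowers in liver and muscle. Of the 31 listed, 24 were measured, 7 with a change above 0 and 17 below (median -0.04), and 1 was higher and 2 lower at an unadjusted p under 0.05. Klf2, a FOXO target in lymphocytes, had 56.0, 68.5, 62.0 and 58.9 RPKM untreated and 52.4, 57.3, 54.8 and 60.7 RPKM at 100 ng/mL (change -0.12 ± 0.05, limma adjusted p = 0.86). Trib1, a regulator of CEBPA stability, differed by -0.15 ± 0.05, and Gadd45a, a stress gene, by 0.11 ± 0.05. Genes of cholesterol and fatty acid synthesis, which insulin raises in liver through SREBP, had a median of 0.04, with 26 of 34 measured, 19 above 0 and 3 higher at an unadjusted p under 0.05. The 3 were the sterol enzymes Cyp51 (0.19 ± 0.07) and Idi1 (0.28 ± 0.10) and the SREBP regulator Insig1 (0.14 ± 0.06). Hmgcs1, a direct SREBP target, differed by -0.02 ± 0.04. Of 35 genes of glucose uptake, glycolysis and glycogen, 27 were measured, 5 with a change above 0 and 22 below, and the median was -0.03. By preparation this median at 100 ng/mL was 0.014, -0.124, -0.037 and 0.027, against 0.03, -0.045, 0.006 and 0.046 over all genes. The neutrophil glucose transporter gene Slc2a3 had group means of 127 ± 6.9 RPKM untreated, 130.2 ± 6.4 RPKM at 10 ng/mL and 124.5 ± 3.4 RPKM at 100 ng/mL (SD, n = 4). Pfkl, a phosphofructokinase subunit, was the 1 member with an unadjusted p under 0.05 (change -0.13 ± 0.05, limma adjusted p = 0.857).

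Aqp1 was the single gene called. It encodes aquaporin 1, the water channel of red blood cells and endothelium (chromosome 6, 55336432 to 55348555, plus strand). It had 3.56, 3.72, 1.11 and 0.646 RPKM in untreated cells. At 10 ng/mL it had 4.71, 4.98, 1.52 and 1.077 RPKM, and at 100 ng/mL 5.65, 5.71, 1.87 and 1.079 RPKM. Preparations 6 and 9 held several times as much Aqp1 as preparations 10 and 11 at each dose, so the groups overlapped, but within each preparation both insulin libraries lay above the untreated one. In reads the sums over the 4 libraries were 578, 776 and 884 from the lowest dose to the highest, with 40 to 352 reads in a library. Aqp1 rose by 0.66 ± 0.07 at 100 ng/mL (1.57-fold, 95% interval 0.50 to 0.81, limma adjusted p = 0.018). At 10 ng/mL the difference was 0.47 ± 0.07 (1.39-fold, adjusted p = 0.194), and between the doses it was 0.18 ± 0.07 (adjusted p = 0.353). With both doses pooled it was 0.56 ± 0.06 (limma adjusted p = 0.019), and only the 1.5-fold limit kept it from a call. In the trend it was 0.66 ± 0.085 (limma adjusted p = 0.051). Within preparations the difference at 100 ng/mL was 0.65, 0.60, 0.71 and 0.66. In the 4 IGF1 libraries Aqp1 had 3.03, 3.63, 1.68 and 1.32 RPKM, below untreated in preparations 6 and 9 and above it in 10 and 11. The call held with 0.1 as the filter and with voom. It was lost with a pseudocount of 1, where the change was 0.46 and so under 1.5-fold. It was also lost with all 24 libraries in the fit (adjusted p = 0.9992), with the 8 libraries of these groups alone (0.113), without the preparation block (0.9997), with preparation 6, 9 or 10 left out (0.166 to 0.403), and with any single library left out (highest adjusted p = 0.166, without preparation 10 at 100 ng/mL) other than those of preparations 10 and 11 at 10 ng/mL.

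The promoter of Aqp1 is shown because this is the 1 gene called. The stretch runs from 250 bases before to 50 bases after the RefSeq start (GRCm38.p6, chr6:55336049-55336348, plus strand), and it has no capitals because none of the motifs searched was found in it.

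Aqp1: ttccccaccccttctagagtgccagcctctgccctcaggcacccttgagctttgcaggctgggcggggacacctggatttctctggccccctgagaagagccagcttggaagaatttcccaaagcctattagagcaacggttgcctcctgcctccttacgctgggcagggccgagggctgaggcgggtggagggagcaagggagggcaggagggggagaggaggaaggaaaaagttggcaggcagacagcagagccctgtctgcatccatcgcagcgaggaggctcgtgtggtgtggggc

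The motifs were searched on both strands. They were the CArG box by name (in 1.63% of 32851 mouse promoters of the same 300 bases), CRE TGACGTCA (1.79%), AP-1 TGACTCA (5.2%), FOXO TGTTTAC (3.65%), STAT TTCNNNGAA (8.3%), the same with 1 more base in the middle (6.95%), the interferon-stimulated response element (ISRE) by name (3.44%) and NF-kB by name (9.38%). A match is a description of letters and not evidence of binding.

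Aqp1 is expressed in red cell precursors, and the erythroid markers are therefore given beside it. Of 15 listed, 13 were measured. All 13 had a change above 0 in the trend, with a median of 0.18 against 0.01 over all genes, and 4 were higher and 0 lower at an unadjusted p under 0.05. Hemgn, an erythroid nuclear protein that is not in that list, was second to Aqp1 in the trend. It had 9.20, 12.2, 3.79 and 1.27 RPKM untreated, 10.7, 14.8, 4.55 and 1.58 RPKM at 10 ng/mL, and 12.5, 14.6, 5.17 and 2.06 RPKM at 100 ng/mL. All 8 insulin libraries lay above the untreated one of their preparation (change 0.45 ± 0.07, limma adjusted p = 0.084). The membrane protein gene Ermap (0.25 ± 0.10) and the erythroid transcription factor Gata1 (0.25 ± 0.11) had changes in the same direction. The abundant haemoglobin genes had changes near 0. Hbb-bs had 981, 2479, 621 and 261 RPKM untreated and 1321, 2286, 553 and 240.1 RPKM at 100 ng/mL, with a change of 0.01 ± 0.09, and Hba-a2 differed by 0.04 ± 0.12. The summed level of the 15 markers ranged from 659 to 6194 RPKM untreated, from 684 to 5259 RPKM at 10 ng/mL and from 620 to 5713 RPKM at 100 ng/mL, and it lay above untreated in 2 of 4 preparations with the lower dose and in 1 of 4 with the higher. By preparation, the median change of the 13 measured markers at 100 ng/mL was 0.43, -0.06, -0.02 and 0.13. The part of erythroid cells in the Aqp1 result was not tested.

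Immediate early genes were examined because ERK induces them, but they rise within minutes, and RNA at 4 hours does not read ERK activity directly. On blots after a short treatment, the paper found more phosphorylated ERK with insulin, and no rise of phosphorylated AKT with any treatment. Of 40 immediate early and ERK feedback genes listed, 30 were measured, and in the trend 4 were higher and 1 lower at an unadjusted p under 0.05, with a median of 0.02. Fos had 5.82, 9.09, 8.36 and 8.38 RPKM untreated and 5.91, 10.1, 9.03 and 7.91 RPKM at 100 ng/mL (change 0.05 ± 0.07). Jun and Junb, partners of Fos in the AP-1 factor, differed by 0.00 ± 0.05 and -0.05 ± 0.06. Egr1, which ERK induces through serum response factor, had 0.784 to 1.42 RPKM untreated and 0.733 to 1.83 RPKM at 100 ng/mL (change 0.16 ± 0.13). The 3 groups overlapped for each of these genes at 4 hours.

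Fosb, another AP-1 subunit, differed from these. It was below the filter of the comparison above. It was named for its AP-1 role, and earlier results of these data were known. Fosb (chromosome 7, 19302696 to 19310051, minus strand) had 0.567, 0.834, 1.10 and 0.897 RPKM in untreated cells. It had 0.186, 0.45, 0.361 and 0.299 RPKM at 10 ng/mL and 0.111, 0.373, 0.306 and 0.169 RPKM at 100 ng/mL. In every preparation both insulin libraries lay below the untreated one, and 100 ng/mL was lower than 10 ng/mL. All 8 insulin libraries lay below their untreated library in 46 (0.486%) of the 9465 genes tested, which do not include Fosb. The share among genes at so low a level was not counted. In reads the sums were 315, 112 and 85. In a fit over 13502 genes with at least 0.1 RPKM in 4 libraries, Fosb fell with both doses pooled (-1.35 ± 0.14, limma adjusted p = 0.018) and at 100 ng/mL (-1.52 ± 0.16, 95% interval -1.88 to -1.17, adjusted p = 0.017). At 10 ng/mL the difference was -1.17 ± 0.16 (adjusted p = 0.204), in the trend -1.52 ± 0.21 (adjusted p = 0.106), and between doses -0.35 ± 0.16 (adjusted p = 0.447). The exact permutation test within preparations gave two-sided p = 0.00154 for the trend and 0.0123 for the pooled difference, which are the smallest values this design allows. A gene that falls or rises with each dose step in every preparation can reach them. They were not adjusted for the number of named genes for which this test was computed. With voom the trend had an adjusted p of 0.041, and the calls were lost for the pooled difference (0.066) and at 100 ng/mL (0.089). Leaving out 1 library moved the adjusted p of the pooled difference between 0.019 and 0.222, the highest without the untreated library of preparation 10. At 100 ng/mL it moved between 0.020 and 0.198, with the same library behind the highest value, and the call was kept only without the untreated library of preparation 9 or that of preparation 10 at 10 ng/mL (0.029). In the 4 IGF1 libraries Fosb had 0.22, 0.901, 0.398 and 0.397 RPKM, below untreated in preparations 6, 10 and 11 and above it in preparation 9. Across preparations this overlaps both the untreated and the insulin range.

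The promoter of Fosb is shown because this gene was called in the fit with the lower filter (GRCm38.p6, chr7:19309996-19310295, minus strand). Capitals mark matches to NF-kB, the 1 motif of those above found in it.

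Fosb: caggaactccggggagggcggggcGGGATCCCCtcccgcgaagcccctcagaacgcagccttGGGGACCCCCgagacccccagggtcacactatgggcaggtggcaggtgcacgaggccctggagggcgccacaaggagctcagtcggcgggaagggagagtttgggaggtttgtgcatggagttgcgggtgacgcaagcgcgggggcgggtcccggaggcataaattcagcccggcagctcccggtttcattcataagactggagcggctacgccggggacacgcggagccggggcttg

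Myc, a growth regulator that ERK and PI3K signalling raise in many cells, had 1.01, 2.55, 1.36 and 2.36 RPKM untreated. It had 1.26, 3.06, 1.81 and 2.79 RPKM at 10 ng/mL and 1.66, 3.46, 1.88 and 2.59 RPKM at 100 ng/mL. Every insulin library lay above the untreated one of its preparation, while the groups overlapped across preparations, and the change did not pass the test (0.42 ± 0.09, limma adjusted p = 0.551). Dusp2, a phosphatase that switches ERK off, differed by 0.23 ± 0.09, and Spred2, an inhibitor of RAS signalling, by -0.20 ± 0.07. For both, the 8 insulin libraries lay on 1 side of the untreated ones of their preparations.

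The genes of the amino acid response are activated by ATF4 when amino acids are short, and mTORC1 also raises ATF4 activity after insulin. Of 20 listed, 18 were measured, 13 with a change above 0 in the trend (median 0.13 against 0.01 over all genes), and 6 were higher and 0 lower at an unadjusted p under 0.05. Shmt2, a mitochondrial enzyme of serine and folate metabolism, had 13.6, 17.7, 12.6 and 18.1 RPKM untreated, 16.7, 20.3, 14.9 and 18.6 RPKM at 10 ng/mL, and 16.9, 20.3, 15.0 and 19.4 RPKM at 100 ng/mL. It was higher in 8 of 8 insulin libraries (change 0.22 ± 0.05, limma adjusted p = 0.779). Differences of like size were seen for the amino acid transporters Slc7a5 (0.21 ± 0.09) and Slc7a1 (0.17 ± 0.06), for Aldh18a1 of proline synthesis (0.22 ± 0.07), for asparagine synthetase Asns (0.14 ± 0.05) and for the pseudokinase Trib3 (0.28 ± 0.10). Atf4 itself differed by -0.01 ± 0.05. None of the 18 passed the adjusted test, and the list median at 100 ng/mL was 0.22, 0.01, 0.07 and 0.01 by preparation. The median was 0.13 with GC content and length removed.

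**Figure D3:**
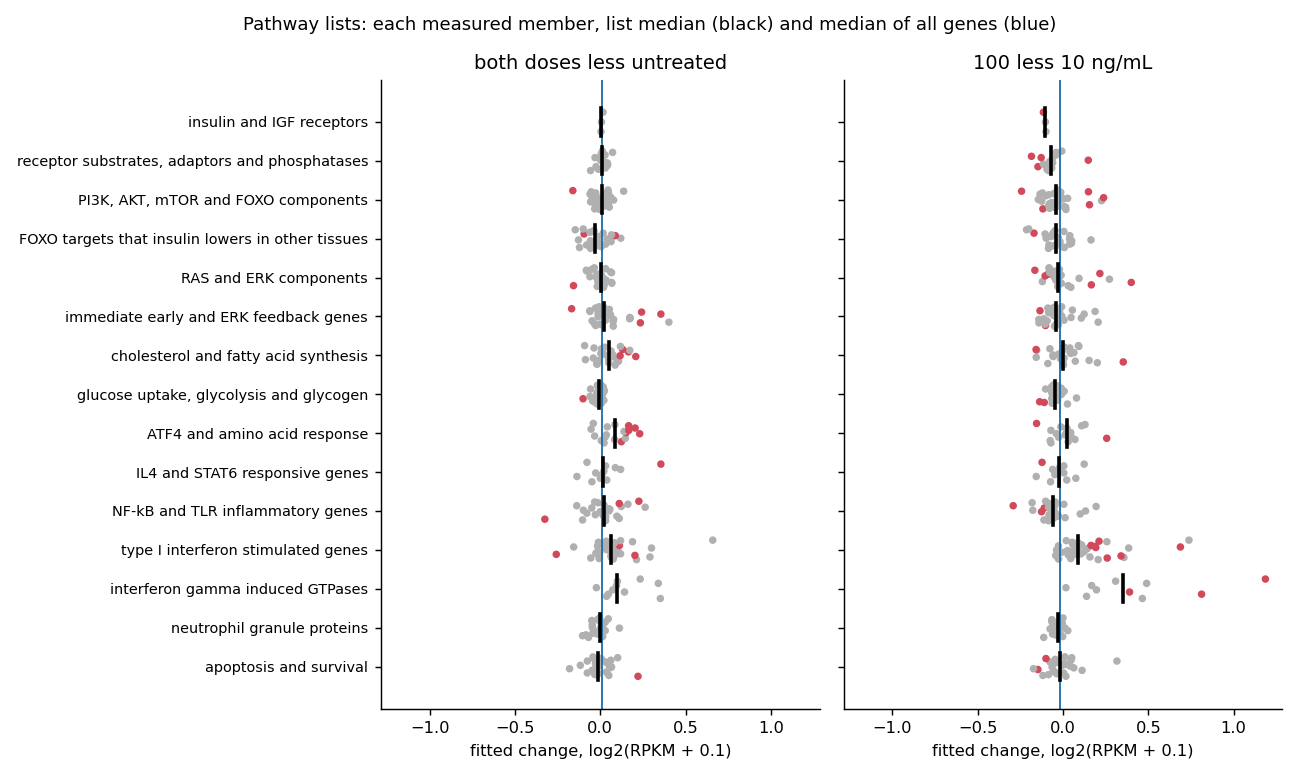
Fitted change on the log2(RPKM + 0.1) scale of each measured member of the 15 pathway lists, for both doses less untreated (left) and 100 less 10 ng/mL (right). Red points have an unadjusted p under 0.05, black bars are list medians and the blue line is the median of all genes; the median of the interferon γ induced GTPases is 0.10 on the left and 0.35 on the right.

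B lineage markers were measured for 13 of 14 genes and moved in both directions, with 2 higher and 3 lower at an unadjusted p under 0.05 in the trend. Ms4a1, which encodes CD20, had 3.25, 8.45, 2.84 and 8.07 RPKM untreated and 6.49, 11.9, 4.39 and 8.64 RPKM at 100 ng/mL (change 0.54 ± 0.11, limma adjusted p = 0.548). Vpreb3, a chaperone of the immature B cell receptor, differed by 0.31 ± 0.10. Rag1, the recombinase of lymphocyte precursors, had the opposite sign. It had 23.3, 27.0, 11.5 and 7.55 RPKM untreated, 14.1, 18.4, 7.81 and 8.08 RPKM at 10 ng/mL and 10.3, 13.4, 5.73 and 8.35 RPKM at 100 ng/mL. In preparations 6, 9 and 10 both doses lay below untreated, and in preparation 11 both lay above it (change -0.76 ± 0.19, adjusted p = 0.844). Without preparation 11 Rag1 was called in the trend, in the pooled comparison and at both doses. Cd79a, a signalling subunit of the B cell receptor, differed by -0.04 ± 0.05. The summed level of the 14 markers was 496 to 812 RPKM untreated, 513 to 814 RPKM at 10 ng/mL and 476 to 778 RPKM at 100 ng/mL.

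The remaining genes with the smallest p in the trend or in the pooled comparison did not pass the call either. Emid1, an extracellular matrix protein gene, had 0.711, 0.585, 0.594 and 1.20 RPKM untreated and 1.36, 1.3, 1.09 and 1.61 RPKM at 100 ng/mL (change 0.76 ± 0.13, limma adjusted p = 0.195). Srpk3, a kinase gene, had 0.951, 1.55, 0.502 and 1.54 RPKM untreated and 1.89, 2.52, 1.02 and 1.84 RPKM at 100 ng/mL (0.68 ± 0.11, adjusted p = 0.195). Slc9a3r2, a scaffold protein gene, lay lower in 8 of 8 insulin libraries (-0.42 ± 0.09, adjusted p = 0.527). Cd83, an activation marker of B and dendritic cells, lay higher in 8 of 8 (pooled difference 0.37 ± 0.06, adjusted p = 0.179). F630028O10Rik had 299.3, 305, 317 and 356 RPKM untreated, 240.4, 240.2, 237 and 336 RPKM at 10 ng/mL and 246, 254, 244 and 324 RPKM at 100 ng/mL, with all 8 insulin libraries below the untreated one of their preparation (pooled difference -0.28 ± 0.04, adjusted p = 0.179). The transcript (chromosome X, 96239926 to 96243636) overlaps the annotated Mir223 hairpin on the same strand at 96242817 to 96242926, and the mature miRNA was not measured.

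No marker of neutrophil function passed the test. Of 25 granule protein genes 24 were measured, 8 with a change above 0 and 16 below, and 0 had an unadjusted p under 0.05 in the trend. Of 34 genes of NF-kB and TLR inflammation 27 were measured, with 1 higher and 5 lower at an unadjusted p under 0.05 and a median of 0.00. Il1b had 134.2, 122, 310 and 155 RPKM untreated and 129, 103.5, 238 and 159 RPKM at 100 ng/mL (change -0.16 ± 0.06, limma adjusted p = 0.857). Il12a, a subunit of interleukin 12 and an N1 marker, had 3.17, 3.47, 2.395 and 1.70 RPKM untreated and 1.81, 2.64, 1.85 and 1.75 RPKM at 100 ng/mL (change -0.37 ± 0.11, adjusted p = 0.844). Tnf differed by -0.01 ± 0.05.

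The N2 markers that the study followed were compared between insulin and IGF1 at the same dose of 10 ng/mL. The paper took Car4 and Slc28a3 from the genes that IGF1 and IL4 raised most in these same libraries. Retnla and Slc28a3 passed the filter (1 RPKM in at least 4 of 24 libraries) only through libraries outside the insulin series. Their differences were thus partly fixed in advance and are given without a p-value. Retnla had 0.623, 0.388, 0.0845 and 0 RPKM with insulin and 11.2, 8.004, 7.07 and 7.77 RPKM with IGF1. In a fit over all 24 libraries with preparation as a block, the difference was 4.90 ± 0.47. Chil3, a chitinase-like protein of alternatively activated myeloid cells, had 2332 to 2725 RPKM with insulin and 4675 to 5315 RPKM with IGF1 (0.97 ± 0.07, limma adjusted p = 1.103e-08). The nucleoside transporter gene Slc28a3 had 0.0295 to 0.0834 RPKM with insulin and 0.777 to 1.55 RPKM with IGF1 (3.20 ± 0.20). For these 3 genes the 4 IGF1 libraries lay above all 12 libraries of the insulin series. The share of all genes for which this holds was not counted. Car4 was listed at 0 in all 12 libraries of the insulin series and had 0.549 to 1.16 RPKM with IGF1. Arg1 had at most 0.0841 RPKM with insulin and 0.127 to 0.292 RPKM with IGF1. Il12a and Tnf did not pass the test between the hormones (-0.31 ± 0.13, adjusted p = 0.161, and -0.36 ± 0.14, adjusted p = 0.142), and neither did the reference gene Nudc (0.15 ± 0.09, adjusted p = 0.357). The hormones are related in structure, and mass doses were equal in ng/mL. At 100 ng/mL, insulin libraries had 0 to 0.282 RPKM of Retnla and 2176 to 2856 RPKM of Chil3.

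The highest list median in the trend belonged to the interferon γ induced GTPases, proteins that attack vacuoles holding microbes. Of 19 listed 10 were measured, 9 with a change above 0, and the median was 0.30, with 1 higher and 0 lower at an unadjusted p under 0.05. This rested on the library of preparation 11 at 100 ng/mL. Gbp2 had 5.63, 2.33, 5.13 and 41.8 RPKM at 100 ng/mL, against 3.40 to 5.73 RPKM untreated and 3.39 to 6.91 RPKM at 10 ng/mL. Ifi47 had 3.04, 3.21, 2.41 and 9.45 RPKM at 100 ng/mL, and Igtp 7.53, 7.39, 7.24 and 14.3 RPKM. The chemokine gene Cxcl9 had 1.02 RPKM in that library and 0 to 0.0662 RPKM in the other 11, and Cxcl10 had 10.5 RPKM against 0.637 to 3.50 RPKM. In that library 9 of the 10 GTPases and 17 of 38 measured type I interferon stimulated genes had their highest value of the 12 libraries, and 0 of 27 NF-kB genes did, where the library was the highest of the 12 for 8.34% of all genes tested. Without it the GTPase median in the trend was 0.01, and that of the interferon stimulated genes 0.05 in place of 0.10. Between 100 and 10 ng/mL, the GTPase median was -0.03, 0.01, 0.05 and 0.96 in preparations 6, 9, 10 and 11, and the fitted median of 0.35 was 0.02 without that library. The LPS/IFNγ library of preparation 11 had 4837 RPKM of Gbp2 and 124 RPKM of Cxcl9. It had 335.3 RPKM of Tnf and 1055 RPKM of Il1b, which were also well expressed and variable without LPS/IFNγ. The library of preparation 11 at 100 ng/mL had 59.23 RPKM of Tnf, against 30.88 to 79.98 RPKM in the other 11. For Il1b it had 159.2 RPKM against 103.5 to 309.9 RPKM. Over 22 genes that were at least 30-fold above untreated and at least 50 RPKM in every LPS/IFNγ library, the library of preparation 11 at 100 ng/mL exceeded the median of the other 11 libraries by a median of 0.801% of the LPS/IFNγ value of its preparation. The same measure was -0.066% to 0.056% in the other 11 libraries. Whether RNA of the LPS/IFNγ cells of the same preparation had a part in these values was not tested. The GTPase, haemoglobin and zinc finger families include near-identical copies, among which reads can be split, so values of single members are uncertain.

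**Figure D4:**
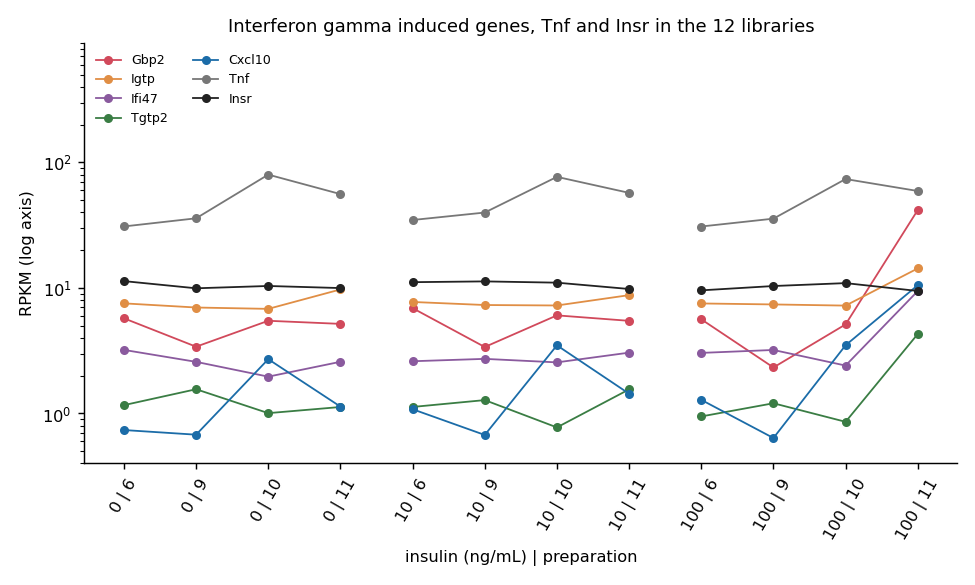
RPKM (log axis) of interferon γ responsive genes in each of the 12 libraries, with Tnf and Insr, ordered by insulin dose and then preparation; lines join the libraries of a dose as a guide. The library of preparation 11 at 100 ng/mL is the highest for Gbp2 (41.8 RPKM against at most 6.91 RPKM elsewhere), and the 3 other libraries at this dose are not set apart.

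The promoters of Gbp2 (GRCm38.p6, chr3:142620413-142620712, plus strand) and Igtp (chr11:58199306-58199605, plus strand) are shown because these genes stood out in the single library. Capitals mark the AP-1 match and the ISRE in Gbp2, and the STAT match TTCNNNGAA and the ISRE in Igtp, on either strand.

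Gbp2: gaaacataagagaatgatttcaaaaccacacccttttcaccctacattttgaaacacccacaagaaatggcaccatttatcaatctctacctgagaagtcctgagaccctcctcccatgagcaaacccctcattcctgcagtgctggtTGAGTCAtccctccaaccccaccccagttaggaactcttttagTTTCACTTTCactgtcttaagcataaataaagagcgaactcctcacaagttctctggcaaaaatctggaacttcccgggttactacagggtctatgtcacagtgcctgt

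Igtp: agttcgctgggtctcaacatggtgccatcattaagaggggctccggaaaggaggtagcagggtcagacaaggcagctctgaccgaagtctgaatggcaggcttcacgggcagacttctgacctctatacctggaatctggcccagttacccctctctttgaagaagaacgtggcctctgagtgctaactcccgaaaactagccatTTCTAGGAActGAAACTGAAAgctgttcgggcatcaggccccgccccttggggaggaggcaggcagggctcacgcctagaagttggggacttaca

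Of the 8 measured GTPases with a RefSeq promoter, 7 held an ISRE within the 300 bases. The share of all mouse promoters was 3.44%, counted per promoter and not per gene. The GTPases were listed because interferon γ induces them, so this count is a property of the list and not a result of these libraries. Neither Aqp1 nor Fosb held an ISRE.

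The comparison of the doses had the largest number of genes at low p, and the genes higher and lower in it differed in GC content. Of 9465 genes, 1217 (12.9%) had an unadjusted p under 0.05, but the smallest adjusted p was 0.156, for BC003331. This gene had 2.99, 2.69, 3.55 and 3.84 RPKM at 10 ng/mL and 4.75, 4.03, 5.09 and 4.64 RPKM at 100 ng/mL (difference 0.50 ± 0.07). The untreated libraries had 3.83 to 4.39 RPKM, which overlaps both doses, and within each preparation the untreated library lay between the doses. Fgl2, which encodes a secreted and membrane-bound fibrinogen-like protein of myeloid cells, had 10.1, 7.59, 10.96 and 10.5 RPKM at 10 ng/mL and 12.9, 11.02, 13.9 and 13.5 RPKM at 100 ng/mL (0.39 ± 0.06, limma adjusted p = 0.156). The zinc finger gene Zfp984 had 5.53, 7.71, 9.60 and 14.0 RPKM at 10 ng/mL and 14.1, 15.1, 16.5 and 14.7 RPKM at 100 ng/mL. Genes higher at 100 ng/mL had a median GC content of 40.4%, those lower 53.5%, and all tested genes 49.2%. The rank correlation between GC content and deviation from the preparation mean, across 9208 genes that are not independent, was 0.431, 0.384, 0.165 and -0.011 at 10 ng/mL and -0.259, -0.26, -0.351 and -0.12 at 100 ng/mL. In the untreated libraries this correlation was -0.094, -0.228, 0.173 and 0.152. The deviations of a gene sum to 0 within a preparation, so the correlations at the 3 doses are not independent. With GC and length trends removed from each library, 1010 of 9208 genes had an unadjusted p under 0.05 and 0 were called. The library of preparation 11 at 10 ng/mL differed from the other 3 of its dose in this respect. Without it 56 genes were called between the doses, all 56 higher at 100 ng/mL, with a median GC content of 38.2%. In all 56 the mean of the untreated libraries lay between the doses. The part of base composition in these differences was not tested.

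**Figure D5:**
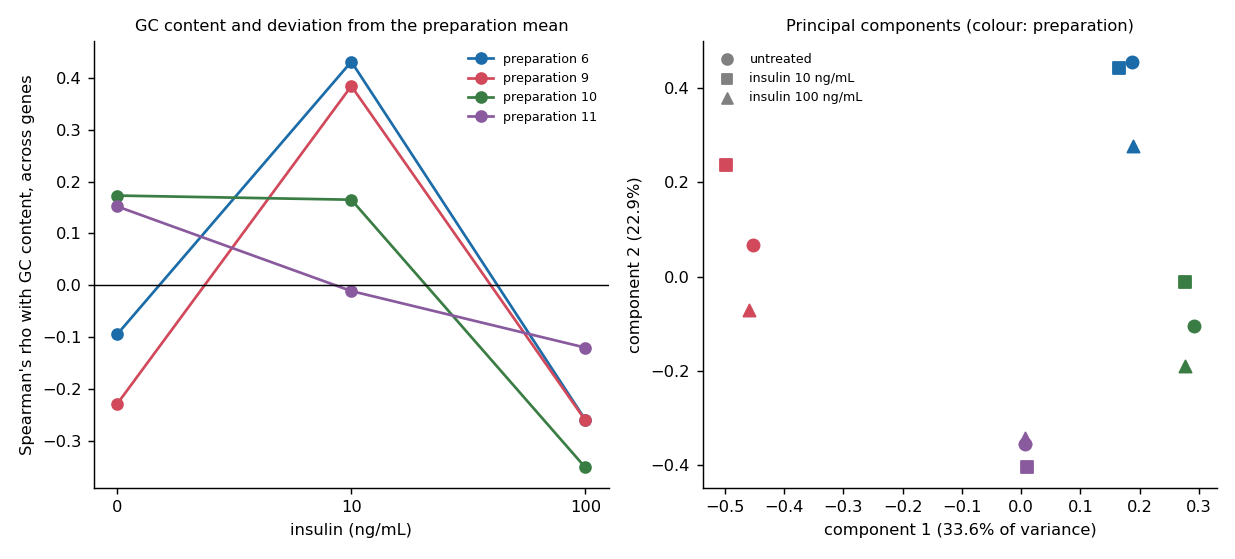
Rank correlation of GC content with deviation from the preparation mean in each of the 12 libraries by insulin dose (left), and scores of the 12 libraries on components 1 and 2 (right), coloured by preparation with the dose as the symbol. The correlations are negative in all 4 libraries at 100 ng/mL (-0.351 to -0.12) and of either sign in untreated libraries. The libraries group by preparation on the first components, which hold 33.6% and 22.9% of the variance.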

How the data were processed

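RNA was captured as mRNA and made into stranded libraries. Base calls came from bcl2fastq 2.17.1.4 per the submitters' notes. The authors mapped reads to GRCm38 with CLC Genomics Workbench and deposited 1 RPKM value per gene and library (reads scaled by transcript length and mapped reads), for 48709 genes. No source used here states whether counting used the strand. RPKM is a share of a library, so a strong rise of some genes lowers all others.

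Groups came from the treatment labels, 4 libraries each. Values were taken as log2(RPKM + 0.1) for genes that reached 1 RPKM in 4 or more of the 12 libraries, and fitted with limma 3.58.1 (R 4.3.3, statmod 1.5.0, trend and robust settings) with preparation as a block. The trend used dose steps, and its change runs from 0 to 100 ng/mL. Before preparations were blocked, deviations from group means were compared: the median correlation was 0.624 over the 12 pairs that shared a number (0.424 to 0.729) and, over 36 pairs that shared neither number nor group, -0.166 (-0.521 to 0.052), and 12 of 12 libraries were closest to their own number. The numbers come from the file headers.

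Whole reads were recovered from the RPKM steps at the GENCODE M21 exon length for 14722 genes, within 0.0001 reads. For 6336 other genes the length was fitted, which does not test the recovery. Exact permutation tests within preparations were computed for the named genes, without adjustment for their number. Results are given for 3 of them, Insr, Igf1r and Fosb. Promoters are RefSeq sequences (GRCm38.p6). Positions are from GENCODE M21. Python 3.11.15, numpy 2.4.6, pandas 2.3.3, scipy 1.17.1 and matplotlib 3.10.9 were used.

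Named genes were those called, the 8 with the smallest p in the trend and in the pooled comparison, receptor and pathway genes, up to 3 members of each list with the smallest p in the trend, the markers the study measured, and AP-1 and EGR factors. The interferon chemokines and the genes beyond these, such as Gbp2, Igtp, Hbb-bs, Gata1, Asns, Trib3, Atf4, Slc2a3, Cd79a, Fgl2, BC003331 and Zfp984, were named after their values were seen. The 15 pathway and 10 cell type lists and the choice of libraries were made with earlier results of these data known. Alternatives were other pseudocounts, filters, fold thresholds, dose scales and scalings, no block, voom, all 24 libraries, and each library or preparation left out. The removal of GC and length trends (splines of 4 degrees of freedom; 97.3% of genes had a GC value), and voom with the lower filter, were added after seeing the data.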

Additional observations from a re-analysis of the deposited data

Results flagged for a closer look

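Of 132 groups of 4 values checked, 10 held a library farther from the others than Dixon's 95% limit for 4 samples, where chance gives about 1 in 20. Some of the genes checked, such as Gbp2 and Igtp, were named for their values, so that rate does not hold for them. At 100 ng/mL insulin, 4 of these came from the library of preparation 11: Gbp2 had 41.76 RPKM against 2.325 to 5.628 in the other 3 libraries, Ifi47 9.453 against 2.408 to 3.206, Igtp 14.31 against 7.235 to 7.525, and the summed level of the interferon γ induced GTPases was 114.2 against 39.09 to 43.92 RPKM. F630028O10Rik was also high in preparation 11, with 335.5 RPKM at 10 ng/mL (others 236.7 to 240.4) and 324.2 RPKM at 100 ng/mL (others 243.7 to 253.8). In untreated cells, preparation 6 was low for Egr1 (0.7837 RPKM, others 1.357 to 1.416) and Chac1 (3.763 RPKM, others 5.538 to 5.647), and preparation 10 was low for Gbp9 (1.397 RPKM, others 2.476 to 2.665). Il12a was high in preparation 9 at 100 ng/mL (2.636 RPKM, others 1.747 to 1.846).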

How the results depend on the processing

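The p-values of the blocked fits measure how differences between doses varied over the 4 preparations, and not how levels varied between preparations. RNA of erythroid and B lineage cells was present throughout. In the pooled comparison 1 gene was called with a pseudocount of 0.01 or without a fold threshold (Aqp1) and with the filter at 0.1 RPKM or none (Fosb). At 100 ng/mL against untreated, 2 genes were called with the filter at 0.1 RPKM or none (Aqp1 and Fosb), and 0 with a pseudocount of 1, a 2-fold threshold, all 24 libraries in the fit or the 8 libraries of these groups alone. In the trend 1 gene was called with median-of-ratios scaling, voom, or GC and length trends removed (Aqp1), and 2 with voom at the lower filter (Aqp1 and Fosb). Without the block for preparation, 0 genes were called at 100 ng/mL, and the genes at an unadjusted p under 0.05 numbered 127, 81, 102, 123 and 559 in the trend, the pooled comparison, 10 ng/mL, 100 ng/mL and between the doses. Leaving out a library or a preparation gave 0 to 4 calls in the trend, 0 to 1 in the pooled comparison, 0 to 1 at 10 ng/mL, 0 to 2 at 100 ng/mL and 0 to 56 between the doses. The 4 in the trend were Aqp1, Pam16, Rag1 and Srpk3, without preparation 11, where 17 genes were called between the doses. The share of variance between preparations and between doses was 70.3% and 10.0% with a pseudocount of 1, 52.8% and 13.2% with the filter at 0.1 RPKM, and 71.5% and 9.19% over the 1000 most variable genes. A count of 240 results of single genes under the alternatives covers Aqp1, Hemgn, Insr and Igf1r, in the trend and the pooled comparison only. It leaves out the call of Aqp1 at 100 ng/mL, which was lost under many alternatives, as given above. Of the 240, 231 stayed on the same side of the threshold, although the changes of Insr and Igf1r, which are near 0, turned in sign under some alternatives. The other 9, all for Aqp1, passed the threshold where the value above had not. The cause of these changes was not tested. At 40 to 352 reads of Aqp1 and 10 to 104 reads of Fosb in a library, counting error limits both.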
